A study of Mus musculus with 12 samples.

Results

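The toll-like receptors Tlr1 to Tlr9 and Ly96, the partner protein of Tlr4, were taken by gene symbol from a nanostring table of inflammation-related genes, and all 10 were among the 248 genes tested. They were read as 6 surface members (Tlr1, Tlr2, Tlr4, Tlr5 and Tlr6 with Ly96) and 4 endosomal members (Tlr3, Tlr7, Tlr8 and Tlr9). In the nanostring assay 2 probes bind each mRNA, 1 to hold it and 1 with a colour code that is read molecule by molecule, with no amplification step. It was run on blood monocytes (MNCs, 6 samples) and on Kupffer cells (KCs, 6 samples), which are liver-resident macrophages, of Balb/C mice. Neither group carried an allele or received a treatment named in the labels, and the age and sex of the mice were not given in the sources used here. Both cell types were sorted magnetically by F4/80, which marks macrophages of the mouse, the monocytes from the mononuclear cells of blood and the Kupffer cells from livers that had been digested with collagenases. Digestion and cell type cannot be told apart in this design. By the labels each sample was a pool of sorted cells from 5 mice. They do not say whether monocytes and Kupffer cells of 1 number came from the same mice, so the p-values measure the spread between these pools. In pooled RNA of sorted cells, fewer cells of a type and less RNA per cell cannot be told apart.

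Toll-like receptors are membrane proteins of the innate immune system that bind molecules shared by many microbes and pass the signal through adaptors such as Myd88 to NF-kB, AP-1 and interferon regulatory factors. The surface receptors bind parts of the microbial envelope or flagella: Tlr4 binds lipopolysaccharide together with Ly96 (also called MD-2), Tlr2 binds lipopeptides as a pair with Tlr1 or with Tlr6, and Tlr5 binds flagellin. The endosomal receptors bind nucleic acids that a cell has taken up, Tlr3 and Tlr7 and Tlr8 RNA, Tlr9 DNA with unmethylated CpG. Kupffer cells line the liver sinusoids and meet microbial products that arrive from the gut with portal blood.

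The promoters of 4 receptors are shown because the results turn on these genes. Tlr2 and Tlr8 had the largest differences of the members between the cell types, and Tlr1 and Tlr9 varied against Tlr2 and Tlr8 among the monocyte samples. Each window runs from 250 bases before to 50 bases after a transcription start, on the strand of the gene, taken from RefSeq with the build GRCm38.p6. Capitals mark GAGGAA, the core of the sites of PU.1 and other ETS factors, which are known for their part in myeloid gene expression, or GGGCGG, the GC box, each searched on both strands (TTCCTC and CCGCCC are the reverse).
Tlr2 (chr3:83841559-83841858, minus strand): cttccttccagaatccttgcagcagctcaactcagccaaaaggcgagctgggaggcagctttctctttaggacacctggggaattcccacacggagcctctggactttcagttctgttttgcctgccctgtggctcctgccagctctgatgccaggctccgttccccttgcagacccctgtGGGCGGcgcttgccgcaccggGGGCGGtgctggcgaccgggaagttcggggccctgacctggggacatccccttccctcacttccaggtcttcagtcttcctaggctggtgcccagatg
Tlr8 (chrX:167264280-167264579, minus strand): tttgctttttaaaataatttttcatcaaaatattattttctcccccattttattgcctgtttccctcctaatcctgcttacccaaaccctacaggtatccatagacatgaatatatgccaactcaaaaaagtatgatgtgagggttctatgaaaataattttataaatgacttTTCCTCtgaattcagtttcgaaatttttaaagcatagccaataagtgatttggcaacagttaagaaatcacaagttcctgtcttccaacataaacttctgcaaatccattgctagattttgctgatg
Tlr1 (chr5:64933509-64933808, minus strand): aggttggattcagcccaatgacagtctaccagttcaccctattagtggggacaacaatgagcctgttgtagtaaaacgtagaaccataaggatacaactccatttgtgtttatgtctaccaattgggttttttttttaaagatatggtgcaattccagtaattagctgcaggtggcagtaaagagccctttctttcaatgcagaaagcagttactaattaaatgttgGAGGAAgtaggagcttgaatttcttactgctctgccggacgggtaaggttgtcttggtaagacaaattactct
Tlr9 (chr9:106222348-106222647, plus strand): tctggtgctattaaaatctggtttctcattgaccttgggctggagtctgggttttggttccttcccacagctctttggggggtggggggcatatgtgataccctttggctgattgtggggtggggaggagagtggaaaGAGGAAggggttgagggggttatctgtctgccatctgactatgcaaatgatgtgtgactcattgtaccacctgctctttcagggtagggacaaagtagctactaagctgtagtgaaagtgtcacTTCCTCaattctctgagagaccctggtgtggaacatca
The window of Tlr2 held GGGCGG at 69 and 48 bases before the start and no GAGGAA. The window of Tlr8 held GAGGAA on the opposite strand at 77 bases before the start, the printed window of Tlr1 on the same strand at 23 bases before it, and that of Tlr9 at 112 bases before and, on the opposite strand, at 13 bases after it. Over the 9 windows of the 7 members found in the promoter table, 3 held GAGGAA and 3 held GGGCGG (Tlr1 has a further window, chr5:64932650-64932949, with neither), against 28.3% and 35.7% of 32851 windows of 300 bases from the whole genome. Tlr7 and Tlr8 are neighbours on chromosome X and Tlr1 and Tlr6 on chromosome 5, with 0 protein-coding genes in between. A match to these letters is a description of the sequence, and neither binding nor activity was measured.

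The values are normalized counts, that is, counts of reporter molecules after each lane was multiplied by 1 factor by the authors. A sample gave 158730 to 339100 counted molecules in monocytes and 80944 to 140029 in Kupffer cells. Each of the 8 members above the background in all samples rested on 133 to 795 counted molecules per monocyte sample and on 22 to 351 per Kupffer cell sample, so the Kupffer cell values carry the larger counting error. Kupffer cell samples 1 and 6 stood apart by the housekeeping gene Gapdh, with 4159 and 4084 normalized counts against 2159 to 2741 in the other Kupffer cell samples, and monocyte sample 2 by the lowest background, listed at 5. Of the 6 housekeeping genes behind the lane factors, 4 were among the deposited values, and they differed between the cell types. Their means in monocytes and Kupffer cells were 1704 and 2971 for Gapdh and 933 and 324 for Gusb. For Pgk1 they were 151 and 289, and for Cltc 2140 and 2655. Each fold change rests on this scaling, and scaling without Gapdh, used below, kept Cltc, Gusb and Pgk1. Of the marker lists, 2 of 2 Kupffer cell genes on the panel (Cd163 and C6) were higher in Kupffer cells. The groups overlapped in Cd163, with 87.4 to 309 normalized counts in Kupffer cells against 52.3 to 110 in monocytes. Of 2 monocyte genes Itgb2 was lower while Ccr2 was not called (adjusted p = 0.508). The defining markers Clec4f, Timd4, Adgre1 and Ly6c2 were not among the genes tested. The 8 hepatocyte genes on the panel were all higher in Kupffer cells and summed to 4008 to 13939 normalized counts there, against 42.9 to 216 in monocytes, where 7 of the 8 were at the background in every sample. The 3 peritoneal macrophage genes (Retnla, Alox15 and Tgfb2) summed to 20099 to 31675 in monocytes, against 126 to 339 in Kupffer cells. The 6 T and NK cell genes summed to 561 to 960 in monocytes, against 1234 to 1719 in Kupffer cells, with 4 of 6 higher there. For comparison with these counts, 35.1% of all 248 genes tested were higher in Kupffer cells and 21.4% lower. These markers moved with the cell type in the same samples as the receptors, and their part in the differences given next was not tested.

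Of the 10 members, 7 were lower in Kupffer cells than in monocytes at an adjusted p under 0.05 from limma, 0 were higher and 3 were not called. Over all 248 genes, 56.5% were called, 21.4% lower and 35.1% higher in Kupffer cells (53 and 87 genes). Rescaling each sample to its median gene gave 98 lower and 70 higher, and quantile normalization 69 and 63. For 5 members (Tlr2, Tlr4, Tlr7, Tlr8 and Ly96) every Kupffer cell sample lay below every monocyte sample, which held for 15.7% of the 248 genes. Fold changes are on the log2(normalized count + 1) scale, Kupffer cells over monocytes. Probes differ in efficiency, so levels are compared between samples for 1 gene and never between genes.

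**Figure D1:**
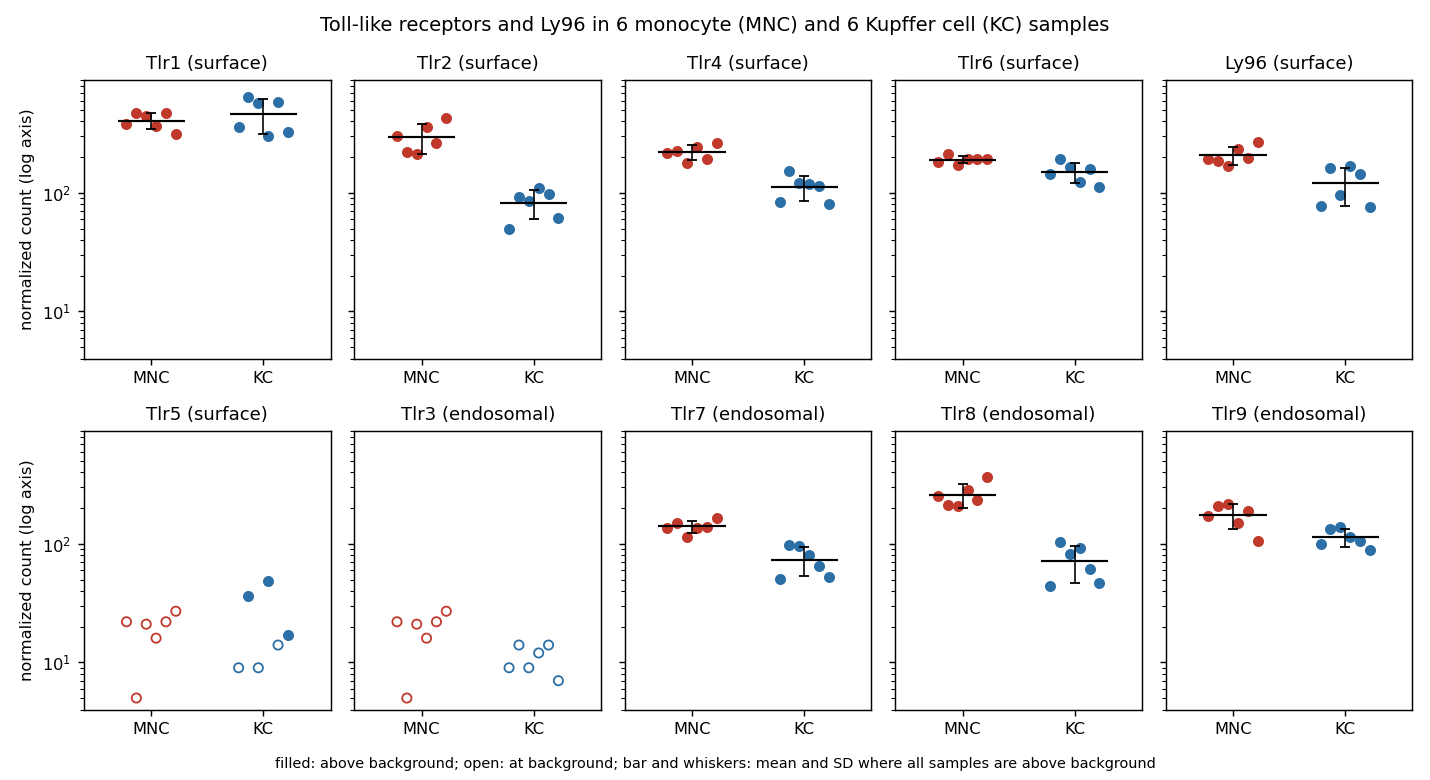
Normalized counts (log axis) of the 10 members in each of 6 monocyte (MNC, red) and 6 Kupffer cell (KC, blue) samples, with the mean and SD where all samples were above the background and open points at the background. In Tlr2, Tlr4, Tlr7, Tlr8 and Ly96 all Kupffer cell points lie below all monocyte points, in Tlr1 Kupffer cell points lie above, within and below the monocyte range, and Tlr3 has open points only.

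Both parts of the lipopolysaccharide receptor were lower in Kupffer cells. Tlr4, which carries the signal across the membrane, had 179 to 261 normalized counts in monocytes (median 222) and 80.3 to 152 in Kupffer cells (median 117). The highest Kupffer cell sample, number 2, stayed below the lowest monocyte sample, number 3. The mean was 220.3 ± 30.6 against 112 ± 26.6 (SD, n = 6 samples each), with a log2 fold change of -0.995 (SE 0.17, adjusted p = 0.000214). Ly96, the secreted protein that sits on Tlr4 and holds the lipid part of lipopolysaccharide, had 170 to 270 normalized counts in monocytes (median 195) and 76.1 to 168 in Kupffer cells (median 119). The groups met without overlapping, since Kupffer cell sample 4 reached 167.85 and monocyte sample 3 fell to 169.68. Its mean was 208 ± 36.9 against 120 ± 42.2, and its log2 fold change was -0.85 (SE 0.23, adjusted p = 0.00572), 1.80-fold lower in Kupffer cells. The Kupffer cell samples fell apart in Ly96: samples 2, 4 and 5 had 161, 168 and 143, and samples 1, 3 and 6 had 77.0, 95.5 and 76.1. The sums of the Kupffer cell genes divided these samples alike, at 683 to 1054 against 284 to 425. So did those of the hepatocyte genes, at 9699 to 13939 against 4008 to 7768. Of the other marker lists only the endothelial gene Flt1 did so, and the part of cell content in Ly96 was not tested.

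The ratio of Tlr4 to Ly96 asks whether the partners differed to the same extent. Within a sample the factor of the lane cancels in such a ratio, while its absolute size has no meaning because probes differ. The ratio (of values + 1) was 1.11, 1.23, 1.06, 1.04, 0.988 and 0.969 in monocyte samples 1 to 6 and 1.08, 0.944, 1.26, 0.711, 0.804 and 1.05 in Kupffer cell samples 1 to 6. The Kupffer cell samples spread to both sides of the monocyte range. The log2 difference was -0.15 (SE 0.13, exact permutation p = 0.297, two-sided), with a 95% interval of -0.44 to 0.14, which is 0.738 to 1.10-fold. A difference in the ratio was not shown, and the interval holds sizes down to 0.738-fold.

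Of the lipopeptide receptors, the shared partner Tlr2 was lower in Kupffer cells and its alternative partners differed less. Tlr2 had 211 to 428 normalized counts in monocytes (median 284) and 49.6 to 110 in Kupffer cells (median 88.6). No Kupffer cell sample came near the monocyte range. The mean was 299 ± 84.4 against 82.7 ± 23.0, 3.59-fold lower in Kupffer cells with a log2 fold change of -1.84 (SE 0.23, adjusted p = 1.18e-05).

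Tlr1, which joins Tlr2 for triacylated lipopeptides, had 312 to 471 normalized counts in monocytes (median 412) and 302 to 641 in Kupffer cells (median 467). The Kupffer cell samples lay in separate groups, samples 2, 3 and 5 at 573 to 641 and samples 1, 4 and 6 at 302 to 361, on both sides of most monocyte samples. The log2 fold change of 0.14 (SE 0.21, 95% interval -0.32 to 0.60, adjusted p = 0.553) was not called, and it turned to -0.043 after rescaling to the median gene and to -0.26 after quantile normalization. Tlr6, which joins Tlr2 for diacylated lipopeptides, had 172 to 213 normalized counts in monocytes (median 192) and 112 to 192 in Kupffer cells (median 152). The groups overlapped, with Kupffer cell sample 2 inside the monocyte range. Its log2 fold change was -0.37 (SE 0.14, adjusted p = 0.0375), and the call was lost without any 1 of monocyte samples 1, 2, 4, 5 and 6 or Kupffer cell samples 1, 4 and 6 (adjusted p up to 0.0820) and under scaling without Gapdh (0.119).

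Set against its partners within each sample, Tlr2 was lower in Kupffer cells than in monocytes. The ratio of Tlr2 to Tlr1 ran from 0.472 to 1.37 in monocytes and from 0.140 to 0.368 in Kupffer cells. The ranges did not overlap, although Kupffer cell sample 4, with a ratio of 0.368 beside 0.140 to 0.190 in the other 5, came closest to the monocytes. The log2 difference was -1.99 (SE 0.33, 95% interval -2.75 to -1.23), 3.97-fold lower in Kupffer cells. The ratio of Tlr2 to Tlr6 ran from 1.04 to 2.20 in monocytes and from 0.347 to 0.897 in Kupffer cells, again without overlap, a log2 difference of -1.47 (SE 0.25, 95% interval -2.01 to -0.92) or 2.77-fold. Each of these ratios had an exact permutation p of 0.00216, the smallest that 924 assignments of the 12 samples allow, and 0.00289 after Benjamini-Hochberg adjustment over the 4 ratios computed.

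Tlr5, the flagellin receptor, did not rise above the background in any of the 6 monocyte samples, which limits it there to at most 5.63 to 27 normalized counts by sample. In Kupffer cells it was above the background in 3 of 6 samples, with 36.5, 48.9 and 16.9 normalized counts in samples 2, 4 and 6, which came from 20, 23 and 8 counted molecules. The other 3 Kupffer cell samples were listed at their background of 9, 9 and 14. With the background as deposited no difference was called (log2 fold change 0.10, adjusted p = 0.846). The call depended on how the background was set: with it multiplied by the lane factor the log2 fold change was 0.99 (adjusted p = 0.0175). The direction was the same under each setting of the background, but it depended on the scaling: after rescaling to the median gene the log2 fold change was -0.087.

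**Figure D2:**
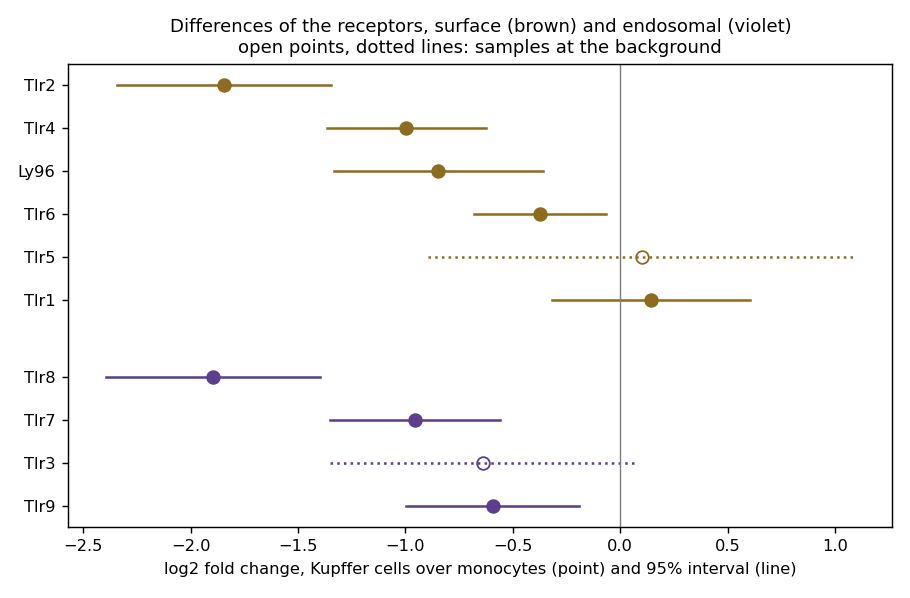
Log2 fold change of each member, Kupffer cells over monocytes, with its 95% interval (n = 6 samples each; surface members brown, endosomal members violet, open points with dotted lines for members with samples at the background). Tlr2 and Tlr8 lie farthest to the left at -1.84 and -1.90, and among the members above the background only Tlr1, at 0.14, lies to the right of 0.

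Among the endosomal receptors, Tlr7 and Tlr8 were both lower in Kupffer cells, and Tlr8 more so than Tlr7. Tlr7 had 113 to 166 normalized counts in monocytes (median 138) and 50.9 to 96.8 in Kupffer cells (median 73.0). All Kupffer cell samples lay below the monocyte samples, with samples 1 and 6 lowest at 50.9 and 52.8. Its log2 fold change was -0.96 (SE 0.18, adjusted p = 0.000533), with means of 140.0 ± 17.3 and 73.7 ± 20.4. Tlr8, its neighbour on chromosome X, had 210 to 369 normalized counts in monocytes (median 243) and 44.4 to 104 in Kupffer cells (median 71.4). The groups were far apart, and samples 1 and 6 were again the lowest Kupffer cells. Its mean was 261 ± 59.7 against 71.5 ± 24.7, 3.72-fold lower in Kupffer cells with a log2 fold change of -1.90 (SE 0.23, adjusted p = 9.40e-06).

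The ratio of Tlr8 to Tlr7 was 1.43 to 2.22 in the monocyte samples and 0.859 to 1.13 in the Kupffer cell samples. The ranges were separate and narrow, the narrowest of the 4 ratios in Kupffer cells on the log2 scale (SD 0.17). The log2 difference was -0.94 (SE 0.12, 95% interval -1.19 to -0.68), 1.92-fold lower in Kupffer cells, with an exact permutation p of 0.00216 and 0.00289 after adjustment over the 4 ratios.

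**Figure D3:**
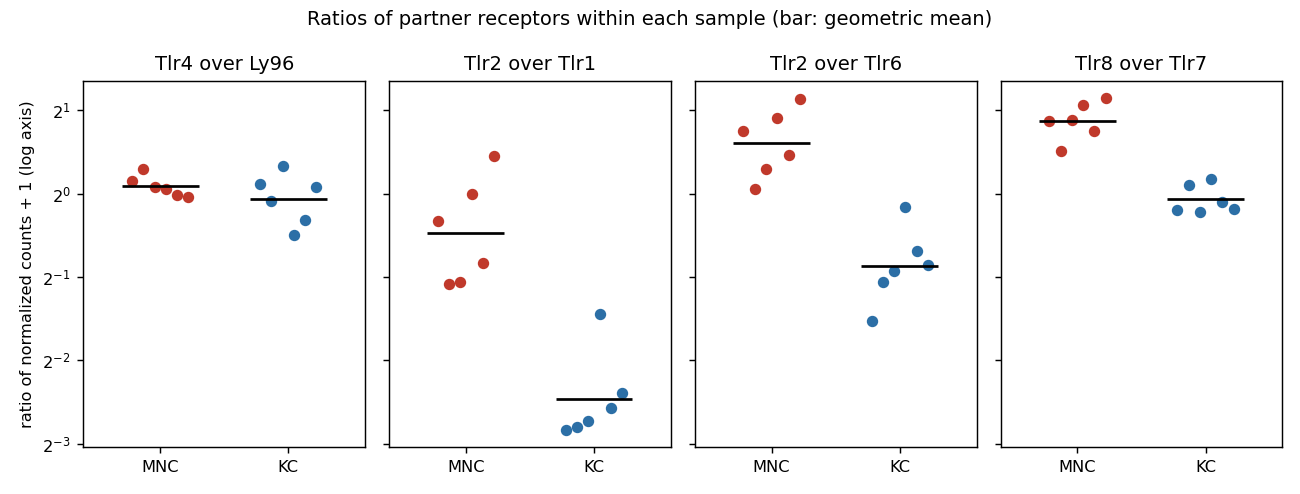
Ratio of normalized counts + 1 of 2 receptors within each sample (log axis; 6 monocyte samples in red, 6 Kupffer cell samples in blue, bar at the geometric mean). The groups are separate for Tlr2 over Tlr1, Tlr2 over Tlr6 and Tlr8 over Tlr7 and overlap for Tlr4 over Ly96, where the Kupffer cell points range from 0.711 to 1.26.

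Tlr9, the receptor of CpG DNA, had 106 to 219 normalized counts in monocytes (median 181) and 88.8 to 138 in Kupffer cells (median 111). Monocyte sample 6, at 106, lay among the Kupffer cell samples, and the other 5 monocyte samples lay above all of them. Its log2 fold change was -0.59 (SE 0.19, adjusted p = 0.0156), with means of 175 ± 41.8 and 114 ± 19.2. Tlr3, the receptor of longer RNA duplexes, was at the background in all 12 samples, which limits it to at most 5.63 to 27 normalized counts in a monocyte sample and 11.7 to 30.4 in a Kupffer cell sample. The log2 fold change fitted to Tlr3 (-0.64, adjusted p = 0.102, not called) compares the listed backgrounds of the lanes and not the gene.

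Members lower in Kupffer cells stood in both classes. Of the 6 surface members 4 were called lower (Tlr2, Tlr4, Tlr6 and Ly96) and of the 4 endosomal members 3 (Tlr7, Tlr8 and Tlr9). The median log2 fold change was -0.61 over the surface and -0.80 over the endosomal members, with the listed backgrounds of Tlr5 and Tlr3 among the values. Over the members above the background in all samples it was -0.85 for 5 surface members (range -1.84 to 0.14) and -0.96 for 3 endosomal members (range -1.90 to -0.59). The same medians were 0.05 over all 248 genes and 0.13 over the 160 genes above the background in all samples. Each class held 1 member with a difference beyond 3-fold and others under 2-fold, so the members differed more within a class than the medians of the classes did. Tlr4 at 1.99-fold and Tlr7 at 1.94-fold stood near the limit of 2-fold, and their side of it depended on the scaling. Their log2 fold changes were -1.18 and -1.14 after rescaling to the median gene and -0.89 and -0.85 under scaling without Gapdh. The classes were not tested against each other.

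Kupffer cell samples 1 and 6, the pair with the highest Gapdh, had the lowest values of the 6 Kupffer cell samples in Tlr2, Tlr4, Tlr7, Tlr8, Tlr9 and Ly96, also when each sample was scaled without Gapdh. The pair also had the lowest sums of the hepatocyte genes, with 4008 and 6800 normalized counts against 7768 to 13939 in the other Kupffer cell samples. The same held for the monocyte genes (2309 and 2264 against 3284 to 3898) and the Kupffer cell genes (284 and 408 against 425 to 1054). It also held for the T and NK cell genes, but not for the other marker lists. The part of cell content in these receptor values was not tested. Without both samples, a choice made after seeing the data, the log2 fold changes moved toward 0. They were -1.58 for Tlr2, -1.61 for Tlr8, -0.79 for Tlr4, -0.73 for Tlr7 and -0.56 for Ly96, all still called (adjusted p up to 0.0278). Tlr9 at -0.47 (adjusted p = 0.0743) and Tlr6 at -0.27 (adjusted p = 0.116) were no longer called. The 3 ratios with separate ranges kept their calls at -1.91 for Tlr2 to Tlr1, -1.31 for Tlr2 to Tlr6 and -0.88 for Tlr8 to Tlr7 (exact permutation, adjusted p = 0.00635 each), and the ratio of Tlr4 to Ly96 was -0.23 (exact permutation, adjusted p = 0.171).

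Within each cell type, the variation of the 8 members above the background was compared from sample to sample. Across the 6 monocyte samples Tlr2, Tlr4, Tlr7, Tlr8 and Ly96 were positively correlated on the log2 scale in 10 of 10 pairs (Pearson r 0.62 to 0.97). Tlr1 and Tlr9 ran against these 5 genes in 10 of 10 pairs (r -0.999 to -0.480). Monocyte sample 6 had the highest values of the monocytes in Tlr2, Tlr4, Tlr7, Tlr8 and Ly96 and the lowest in Tlr1 and Tlr9. Both sets were chosen after their values were seen. The order of the monocyte samples in Tlr9 was the exact reverse of that in Tlr8. With the 2 samples farthest from the median of Tlr8 left out, r of this pair was still -0.998. The relations of Tlr7 rested on the 2 samples farthest from the median of the first gene of each pair, by number with Ly96 last. Its r with Tlr2, Tlr8 and Ly96 was 0.62, 0.67 and 0.72 over 6 samples and -0.87, -0.84 and -0.66 over the remaining 4, its r with Tlr9 turned from -0.69 to 0.85, and its r with Tlr1 went from -0.48 to -0.0086. The relations of Tlr4 weakened as well when such samples were left out. Its r went from 0.83 to 0.080 with Tlr7, from 0.80 to 0.41 with Tlr2 and from 0.81 to 0.47 with Tlr8. With Ly96 it went from 0.86 to 0.54, with Tlr9 from -0.81 to -0.46 and with Tlr1 from -0.75 to -0.44.

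Across the 6 Kupffer cell samples all 28 pairs of the 8 members above the background were positively correlated (r 0.27 to 0.96), and Tlr8 and Tlr9 had r = 0.86. Tlr1 and Tlr9 against the other 5 genes had r of 0.33 to 0.95 there. With the 2 samples farthest from the median of the first gene left out, 8 of the 28 pairs turned negative. These were Tlr2 with Tlr4 (-0.35), Tlr6 (-0.81), Tlr7 (-0.53), Tlr8 (-0.026) and Tlr9 (-0.74), Tlr6 with Tlr8 (-0.28) and Ly96 (-0.46), and Tlr7 with Ly96 (-0.30), so these relations rested on such samples. The samples share their lanes and factors, the points are 6 per cell type, and these correlations are given as a description.

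**Figure D4:**
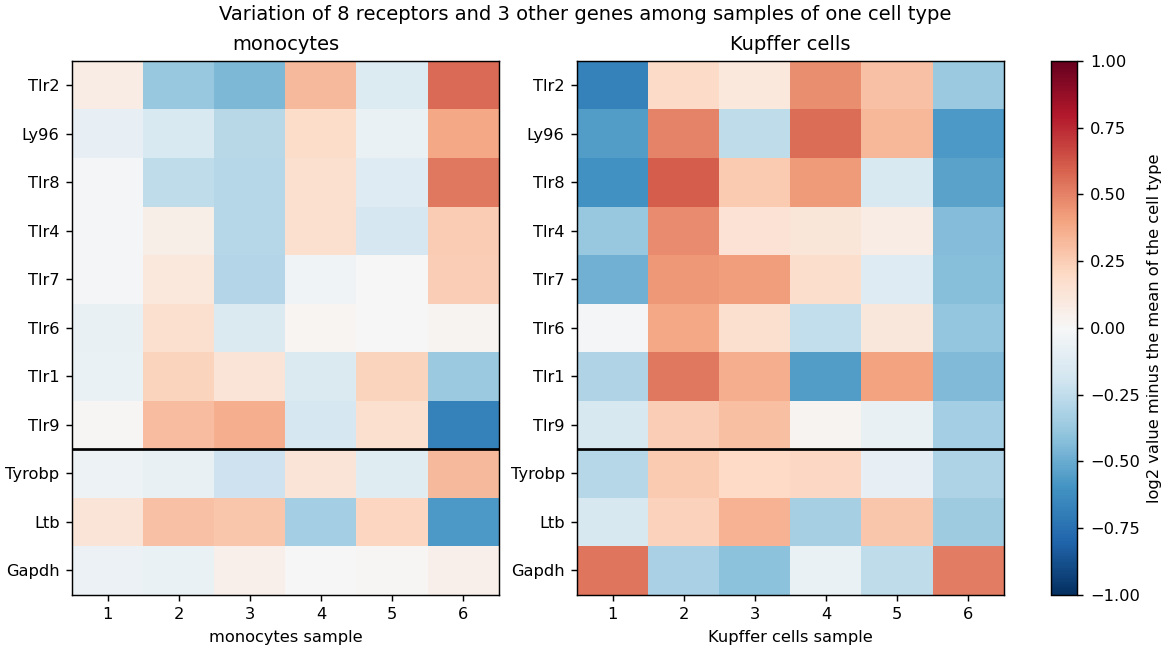
Log2 value minus the mean of the cell type (colour scale, -1 to 1) of 8 receptors and of Tyrobp, Ltb and Gapdh (rows) in each monocyte sample (left) and Kupffer cell sample (right). Monocyte sample 6 is red in Tlr2, Ly96, Tlr8, Tlr4 and Tlr7 and blue in Tlr1 and Tlr9, and Kupffer cell samples 1 and 6 are blue in nearly all receptors and red in Gapdh.

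Lymphocyte and myeloid genes moved with this variation among the monocyte samples. Ltb, a cytokine of lymphocytes and the single B cell marker on the panel, had 1407 normalized counts in monocyte sample 6 and 1656 in sample 4, against 2288 to 2561 in the others, and Cd4 had 340 and 442 against 507 to 627. Samples 6 and 4 were also the lowest monocytes in Tlr1 and Tlr9. The correlation over the 6 monocyte samples was 0.96 between Tlr9 and Ltb, 0.93 between Tlr1 and Ltb and -0.97 between Tlr8 and Ltb. Tyrobp, a signalling adaptor of myeloid and NK cells, was highest in monocyte samples 6 and 4 with 8746 and 7636 against 6060 to 6748, and had r = 0.97 with Tlr8. Among the Kupffer cell samples Tlr1 also moved with Ltb (r = 0.97), which had 3081, 3342 and 3182 normalized counts in samples 2, 3 and 5. It had 2360, 2086 and 2061 in samples 1, 4 and 6. The correlation with Ltb there was 0.70 for Tlr9 and 0.41 for Tlr8. The part of lymphocyte content in the receptor values, and in the ratio of Tlr2 to Tlr1, was not tested.

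The genes most like Tlr4 and Tlr2 were sought among the 159 other genes above the background in all samples, by the correlation over the 12 samples after the mean of each cell type was taken out. For Tlr4 they were Tyrobp (r = 0.92), the kinase Mapkapk2 (0.91), the inflammasome sensor Nlrp3 (0.91), Tlr8 (0.91) and Tlr7 (0.90). For Tlr2 they were the chemokine Cxcl2 (0.94), the complement genes C4a (0.91) and C1qa (0.89), Ly96 (0.87) and the complement gene Cfb (0.87). Other members thus stood among the first 5 for both, Tlr8 and Tlr7 beside Tlr4 and Ly96 beside Tlr2. The remaining members ranked lower, down to Tlr9 at rank 107 for Tlr4 and 122 for Tlr2. With the 2 samples farthest from the median of the gene left out, r of the first 5 was 0.80 to 0.86 for Tlr4 and 0.74 to 0.94 for Tlr2.

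Genes that act after the receptors were called in both directions. Of the adaptors and kinases listed, 4 of 19 were on the panel: Myd88, the adaptor of nearly all toll-like receptors, had 310 ± 29.9 normalized counts in monocytes against 352 ± 37.8 in Kupffer cells (log2 fold change 0.18, adjusted p = 0.195). The kinase Map3k7 (TAK1), which links these receptors to NF-kB and AP-1, was higher in Kupffer cells (log2 fold change 0.83, adjusted p = 0.000319), and the inhibitor Tollip (0.19, adjusted p = 0.146) and the kinase Ripk1 (-0.26, adjusted p = 0.1) were not called. Of 10 transcription factors on the panel, 4 were higher in Kupffer cells (Jun 2.31, Fos 1.96, Irf1 0.80 and Irf7 0.69), 2 were lower (Cebpb -1.48 and Irf5 -0.64) and 4 were not called, which were Nfkb1 (-0.12, adjusted p = 0.462), Rela, Relb and Irf3. These shares lie near the 35.1% higher and 21.4% lower of all genes tested, so the counts say nothing particular of the list. Irf7 and Irf5 both carry signals of Tlr7 and Tlr9, and they differed in opposite directions. Fos and Jun also stand in the list of early response genes to cell isolation, of which 3 of 4 on the panel were higher in Kupffer cells. Of 2 ligands on the panel, Hmgb2 was lower (-1.13, adjusted p = 0.000281) and Hmgb1 was not called (0.26, adjusted p = 0.142).

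All 16 listed cytokines and chemokines induced through toll-like receptors were on the panel, and 5 were higher in Kupffer cells, 4 lower and 7 not called, shares that again lie near the 35.1% and 21.4% of all genes tested. The higher ones were Ccl4 (log2 fold change 2.59), Cxcl10 (2.24), Ccl3 (2.03), Ccl5 (1.69) and Tnf (1.26). The lower ones were the neutrophil-attracting chemokines Cxcl2 (-4.81) and Cxcl1 (-4.69), the cytokine Il6 (-1.99) and Il12a (-0.98), a subunit of interleukin 12. Il1b, with 713 ± 238 normalized counts in monocytes against 507 ± 329 in Kupffer cells, was not called (adjusted p = 0.120), nor was the chemokine Ccl2 with 324 ± 289 against 145 ± 89.7 (adjusted p = 0.1). Il1a, Il10, Il12b, Ifnb1 and Ptgs2 were the others not called, and Il12b was at the background in 11 of 12 samples, Ifnb1 in 10 and Il10 in 7. The median log2 fold change was 0.19 over the 4 adaptors and kinases, 0.23 over the 10 transcription factors and -0.66 over the 16 cytokines and chemokines, beside 0.05 over all 248 genes. Over the 12 cytokines and chemokines above the background in all samples it was -0.81, beside 0.13 over the 160 such genes of the panel. This filter left out Il10, Il12b, Ifnb1 and also Cxcl10, which was higher in Kupffer cells and at the background in 1 monocyte sample.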

How the data were processed

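Monocytes and Kupffer cells (6 samples each, grouped by the labels) were measured with the Mouse Inflammation V2 panel of nCounter. The deposited unit is a normalized signal, made by the authors in nSolver, where positive controls and 6 housekeeping genes gave 1 factor for each lane through their geometric means. As background the authors took the highest of 8 negative controls, and genes under it were deposited at that count without the factor. Each value above it was a whole multiple of the factor within 0.02, and the multiple is the counted molecules. No count model was used, since values at the background were not multiplied. A gene at the background is limited by its listed value or by that value times the factor, whichever is higher.

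Differences over 248 genes were tested with limma 3.58.1 in R 4.3.3 on log2(value + 1), two-sided, at a threshold of 0.05 after Benjamini-Hochberg adjustment. This fit gave each adjusted p for which no other test is named. Ratios of 2 members were compared by exact permutation tests over 924 assignments, with 95% intervals from inverting that test. The steps were tested on simulated data. All else was done in Python 3.11.15 (scipy 1.17.1, numpy 2.4.6, pandas 2.3.3, matplotlib 3.10.9). The methods of the study give pools of 4 to 5 mice.

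All 10 members are named, for each pathway list the number of genes on the panel is given with values for its 6 highest, and for Tlr4 and Tlr2 the 5 genes most correlated with each are named. Other genes of these lists, Ltb, Cd4, Tyrobp and Gapdh were named after their values were seen. The members, ratios and lists were chosen with earlier results of these data known. Alternatives concerned the pseudocount (10), a filter on genes above the background in under 6 samples, the scaling, the background, a replicate block, the test and each sample left out. A further pair, Kupffer cell samples 1 and 6 left out together and the background at its higher limit, was chosen after seeing the data. The correlation of deviations over 160 genes between samples of 1 number was -0.23 to 0.40. Monocyte samples 4 and 5 correlated best with the Kupffer cell sample of their own number. These values cannot decide whether samples of 1 number came from the same mice, because each number has only 1 sample per cell type. All 10 members matched RefSeq (GRCm38.p6) by symbol, and 7 of them had a promoter window.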

Additional observations from a re-analysis of the deposited data

Results flagged for a closer look

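Of 24 sets of 6 samples examined, the 8 members above the background and the 4 ratios in each cell type, 1 held a sample far from the others, and chance gives about 1 in 20. The ratio of Tlr2 to Tlr1 was 0.368 in Kupffer cell sample 4, while the other 5 Kupffer cell samples had 0.140 to 0.190. The gap to the nearest sample took 0.781 of the whole range. This sample had the highest Tlr2 of the Kupffer cells (110 normalized counts) and the lowest Tlr1 (302). Without it, the log2 difference between the cell types in this ratio was -2.19, against -1.99 with it.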

How the results depend on the processing

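Of the values recomputed under alternatives, 422 were labelled the same, 12 lost a call, 3 gained one, 8 changed direction and 5 moved otherwise. For fold changes and ratios, the same means no change of direction or of side of the threshold. Counts of genes and medians of classes have no p, and for them it means only a change within a set tolerance. For example, 188 genes called in place of 140 were labelled the same. Values that changed direction were counted as such whatever their call. Tlr2, Tlr4, Tlr7, Tlr8, Ly96 and the 3 ratios with separate ranges kept their calls under each alternative run. With the replicate number as a replicate block, 132 genes were called in place of 140, and Tlr6 (adjusted p = 0.0504) was the 1 member whose call changed. Tlr6 also lost its call under scaling without Gapdh and without 8 of the 12 single samples, and Tlr9 without Kupffer cell samples 1 and 6. The genes lower in Kupffer cells numbered 98 after rescaling to the median gene and 46 to 86 with 1 sample left out (86 without monocyte sample 2). The genes higher numbered 140 with the background multiplied by the lane factor and 76 to 88 with 1 sample left out. Quantile normalization moved the surface median to -0.95 and the endosomal median to -1.22. Rescaling to the median gene, quantile normalization and scaling without Gapdh moved the median of all genes above the background by -0.19, -0.32 and 0.10 on the log2 scale.

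Direction was lost in uncalled members. Tlr1 turned to -0.043 after rescaling to the median gene and to -0.26 after quantile normalization. Tlr5 turned to -0.087 after rescaling to the median gene and ran from -0.22 to 0.29 with 1 sample left out (-0.22 without monocyte sample 2, -0.094 and -0.18 without Kupffer cell samples 2 and 4), and it was called at 0.99 with the background multiplied. Tlr3, at the background in all 12 samples, was 0.73 with the background multiplied (adjusted p = 0.0237) and 0.19 with it at its higher limit, -0.82 after rescaling to the median gene and -0.95 without monocyte sample 2. These values of Tlr3 follow from how the background is listed. Depth limits Tlr5, with 8 to 23 counted molecules where it was above the background.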
